A study of Homo sapiens with 16 samples.

Results

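Azacitidine (AZA) was compared with vehicle in HL60 cells, an established promyelocytic leukemia line. The comparison rests on 4 of the 16 arrays of the series, 2 from HL60 cells given AZA and 2 from HL60 cells given vehicle, chosen by the cell line and drug named in their labels. The AZA cells received a 0.5 µM dose on each of 3 days and then grew for 4 days without drug, and the vehicle cells received DMSO. All cells of the series grew in RPMI medium with unlabelled (light) lysine and arginine. The other 12 arrays hold AML-193, HNT-34 and KG1a cells, 2 arrays per line and arm, and they enter the fit that estimates the spread. RNA was measured with a whole-transcriptome array of 3'-biased probe sets, and 14038 of the 19775 genes with a single-symbol probe set were bright enough to be tested. Values are log2 signals, and differences are AZA minus vehicle with the standard error (SE) of the fit, with 2 arrays per group.

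AZA is a cytidine analogue that cells build into RNA and DNA, where it traps DNA methyltransferases, so that methylation is lost as the cells divide. Promoters of germ cell genes and of some lineage genes are usually methylated in leukemia cells. HL60 cells are arrested at a promyelocyte-like stage, in which primary (azurophil) granule proteins are made, and other agents can push them toward neutrophil-, monocyte- or eosinophil-like cells. ATF4 is the transcription factor of the integrated stress response, and it drives genes for amino acid synthesis, amino acid import and tRNA charging.

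The cells carried promyelocyte markers in both arms: all 7 such markers on the array lay above the array median, with a mean log2 level of 13.51 and 13.48 on the AZA arrays and of 12.07 and 12.05 on the vehicle arrays. Arrays of one arm correlated at 0.995 (AZA) and 0.998 (vehicle) over the tested genes, and arrays of different arms at 0.969 to 0.976. The arms also differed in RNA quality. Control probe sets for ACTB and GAPDH read both ends of the transcript, and the gap between their 3' and 5' signals, which grows as RNA is degraded or copied incompletely, averaged 0.722 ± 0.163 log2 units with AZA and 0.0443 ± 0.0116 with vehicle (SD, n = 2). The same gap of the dap spike-in control, which is added to the RNA, was 1.39 and 1.41 with AZA and 1.34 and 1.28 with vehicle. AML-193 showed the opposite difference, with 0.198 in AZA cells and 1.27 in vehicle cells. The plot of control signals shows all 16 arrays. No label says whether the arrays of an arm stem from separate cultures; p-values here reflect only the spread between arrays, which may be technical. In bulk RNA, more cells of a type and more RNA per cell cannot be told apart.

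**Figure D1:**
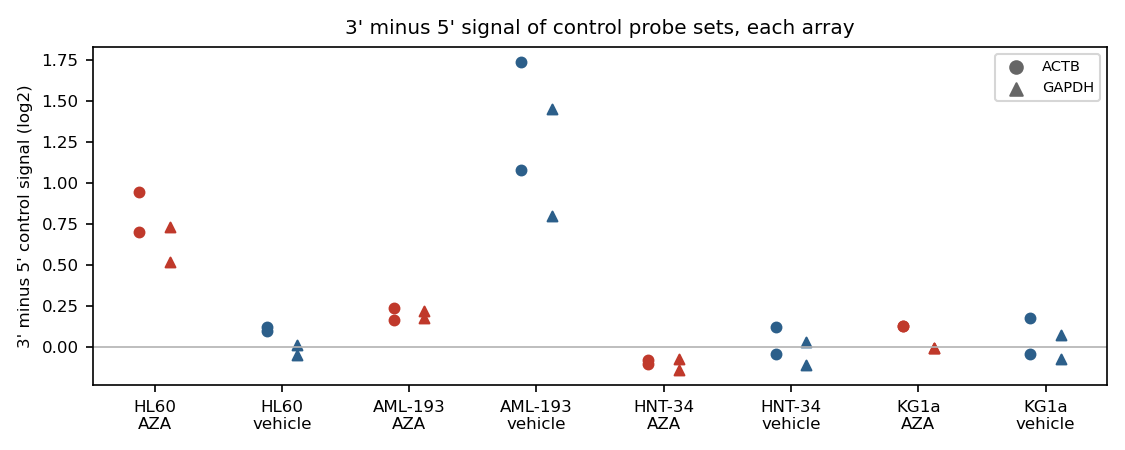
The y axis gives the 3' minus 5' log2 signal on each array for the controls ACTB (circles) and GAPDH (triangles), with AZA arrays in red and vehicle arrays in blue. The HL60 AZA arrays lie at 0.515 to 0.944, above the HL60 vehicle arrays, and the AML-193 vehicle arrays lie highest.

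A gene was called where limma's Benjamini-Hochberg adjusted p over all tested genes was under 0.05. In HL60 cells 5794 genes (41.3% of those tested) were called, 3542 higher (25.2%) and 2252 lower (16%) after AZA. The arrays of the arms did not overlap in 9762 genes (69.5%). Most changes were small: the median absolute difference was 0.21 log2 units, and 305 genes (2.17%) rose and 185 (1.32%) fell at least 2-fold. The count of 2-fold falls was 139 without the first AZA array and 297 without the second, and with the control signal described above as a covariate there were 282 such rises and 112 such falls. The split between rises and falls depended on the scaling: rises were 61.1% of calls with the deposited values, 50.3% after a second quantile normalization, 44.9% with arrays centred on their medians and 49.9% with the mean of all probe sets of a gene. With the control 3' minus 5' signal as a covariate 2152 genes were called, 1942 of them also called without it and in the same direction. Small changes of single genes are therefore given here by count, and genes are named mainly where the change was large. Where a gene has several bright probe sets, they often differed: of 217 such genes with a 2-fold change, 172 (79.3%) had all of them on one side, against 48.2% of all tested genes with several. Among called genes of any size with several, 1591 of 2925 (54.4%) did, close to the share of all tested genes.

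The 3 largest rises belonged to genes at or below the array median of 6.73 with vehicle. CLC, which encodes galectin-10, the protein of the Charcot-Leyden crystals of eosinophils, read 13.14 and 13.31 with AZA, against 6.71 and 6.55 with vehicle, a 96.9-fold rise (difference 6.60 ± 0.18, adjusted p = 4.20e-11). ZNF595, a zinc finger gene, read 11.11 and 10.85 with AZA, against 4.49 and 4.61 with vehicle (6.42 ± 0.12, adjusted p = 4.59e-12). TKTL1, a transketolase-like gene, read 12.58 and 12.11 with AZA, against 6.23 and 6.23 with vehicle (6.11 ± 0.16, adjusted p = 2.81e-11). In all 3 genes both AZA arrays lay more than 5 log2 units above both vehicle arrays. The 250 bases before their RefSeq start sites (build GRCh38.p14) are shown because they differ in CpG content, the substrate of the enzymes that AZA traps; CG dinucleotides are in capitals. CLC (chr19:39738030-39738279, minus strand) holds 2 CpGs, with an observed over expected ratio of 0.107, ZNF595 (chr4:53071-53320, plus strand) holds 10 with a ratio of 0.481, and TKTL1 (chrX:154295545-154295794, plus strand) holds 13 with a ratio of 0.663.
CLC: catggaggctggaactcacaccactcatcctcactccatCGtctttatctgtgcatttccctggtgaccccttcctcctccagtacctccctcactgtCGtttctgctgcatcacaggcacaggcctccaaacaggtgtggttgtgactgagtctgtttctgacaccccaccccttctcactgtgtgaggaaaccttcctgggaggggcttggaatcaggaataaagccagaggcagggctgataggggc
ZNF595: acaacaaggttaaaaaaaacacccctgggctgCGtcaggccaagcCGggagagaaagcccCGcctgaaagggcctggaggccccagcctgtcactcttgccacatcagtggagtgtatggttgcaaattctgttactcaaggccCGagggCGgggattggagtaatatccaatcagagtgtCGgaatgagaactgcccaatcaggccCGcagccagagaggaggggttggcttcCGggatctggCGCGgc
TKTL1: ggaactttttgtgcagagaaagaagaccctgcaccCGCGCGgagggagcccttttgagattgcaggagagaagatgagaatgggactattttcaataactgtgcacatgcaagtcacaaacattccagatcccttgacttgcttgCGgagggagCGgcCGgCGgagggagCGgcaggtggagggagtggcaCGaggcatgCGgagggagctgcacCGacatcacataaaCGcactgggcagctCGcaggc

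EPX, the peroxidase of eosinophil granules, followed with 12.47 and 12.40 with AZA, against 6.63 and 6.58 with vehicle (5.83 ± 0.15). The matrix gene COL14A1 read 9.42 and 9.60 with AZA, against 4.58 and 4.68 with vehicle, and DCAF4L1, a WD-repeat gene, read 8.62 and 8.81 with AZA, against 4.35 and 3.98 with vehicle. Rises of 10-fold or more were also seen for GCNA, a germ cell nuclear protein (4.07 ± 0.13), CD93, a surface receptor of monocytes and progenitors (3.84 ± 0.079), S100A6, a calcium-binding protein (3.77 ± 0.16), and TRPM4, a cation channel (3.71 ± 0.19). LGALS3BP, a secreted glycoprotein and interferon target, rose by 3.57 ± 0.085, GDA, the guanine deaminase, by 3.38 ± 0.15, GSN, the actin-severing protein gelsolin, by 3.35 ± 0.094, and CR1, a complement receptor, by 3.34 ± 0.11. SLPI, an inhibitor of neutrophil elastase, read 10.90 and 10.84 with AZA, against 7.69 and 7.64 with vehicle (3.21 ± 0.11). The weakest bright probe set of CD93 rose by 0.89, that of GSN by 0.83 and that of CR1 by 0.58, so the size of those rises depends on the probe set. The calls of these 15 genes held in every alternative tried.

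**Figure D2:**
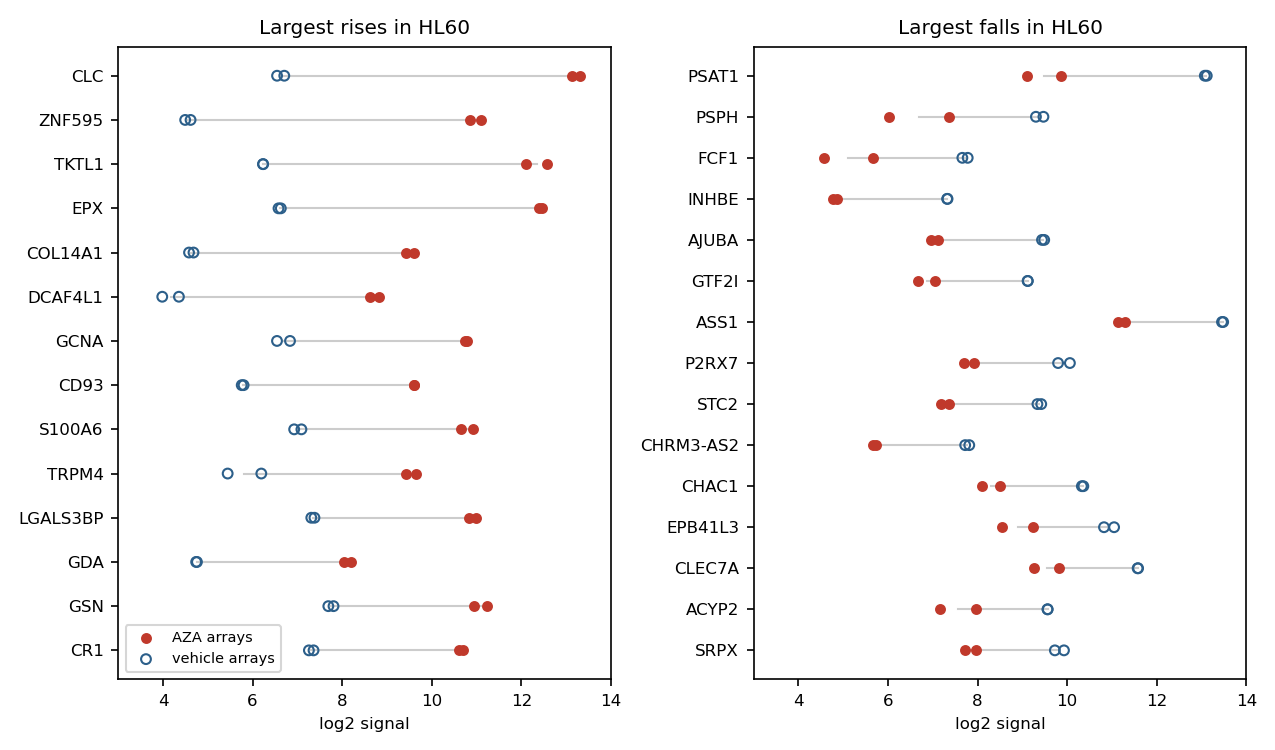
Each row is a gene, the x axis is the log2 signal, red points are the 2 AZA arrays, open blue circles are the 2 vehicle arrays and the grey line joins the means. The 14 largest reported rises (left) and the 15 largest falls (right) are shown, and in none of them do the arrays of the arms overlap.

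The largest fall was PSAT1, the aminotransferase of serine synthesis, which read 9.11 and 9.85 with AZA, against 13.07 and 13.12 with vehicle (-3.61 ± 0.18, adjusted p = 1.56e-08). PSPH, the phosphatase that completes the same pathway, read 6.02 and 7.36 with AZA, against 9.47 and 9.30 with vehicle (-2.69 ± 0.28). In PSAT1 and PSPH the first AZA array, which has the larger 3' minus 5' control signal, was the lower of the pair. With that signal as a covariate the differences were -3.29 for PSAT1 and -2.29 for PSPH, and both calls held. The other bright probe set of PSAT1 differed by -1.04 and that of PSPH by -1.20, so the size of both falls depends on the probe set. In contrast to the CLC sequence, the 250 bases before PSAT1 (chr9:78296875-78297124, plus strand) hold 30 CpGs, with an observed over expected ratio of 1.13.
PSAT1: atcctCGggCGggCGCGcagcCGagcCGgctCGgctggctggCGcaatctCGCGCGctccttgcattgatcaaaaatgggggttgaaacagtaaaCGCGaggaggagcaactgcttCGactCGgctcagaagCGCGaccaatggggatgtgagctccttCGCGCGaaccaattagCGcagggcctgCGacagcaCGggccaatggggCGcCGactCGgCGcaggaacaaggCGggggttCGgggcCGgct

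Among the other large falls INHBE, STC2, ASS1 and CHAC1 belong to the lists of amino acid and ATF4 genes. INHBE, an inhibin subunit and ATF4 target, read 4.86 and 4.77 with AZA, against 7.32 and 7.33 with vehicle, and STC2, a secreted glycoprotein induced by stress, read 7.19 and 7.35 with AZA, against 9.34 and 9.42 with vehicle. ASS1, which makes argininosuccinate for arginine synthesis, fell by 2.25 ± 0.12, and CHAC1, which breaks down glutathione, fell by 2.04 ± 0.11. The rest are in none of those lists: AJUBA, a LIM-domain adaptor at cell contacts, fell by 2.43 ± 0.15, P2RX7, an ATP-gated channel, by 2.12 ± 0.16, EPB41L3, a membrane skeleton protein, by 2.04 ± 0.18, and CLEC7A, the β-glucan receptor dectin-1, by 2.04 ± 0.14. The antisense transcript CHRM3-AS2 fell by 2.07 ± 0.092, ACYP2, an acylphosphatase, by 2.00 ± 0.19, and SRPX, a sushi-repeat protein, by 1.98 ± 0.15. FCF1, a ribosome assembly factor, had a difference of -2.61 ± 0.35 on its chosen probe set and of 0.015 on its other bright one, so no direction is read from it. GTF2I, a transcription factor whose probes may also read pseudogene copies, read 6.67 and 7.06 with AZA, against 9.12 and 9.12 with vehicle, and its call was lost with the covariate (difference -1.43, adjusted p = 0.098).

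Eosinophil and basophil genes rose together. Of 16 tested genes of a list for eosinophils, basophils and mast cells, 10 rose and 0 fell, against 25.2% and 16% of all tested genes, and the median difference was 1.16, against 0.050 over all genes. Beside CLC and EPX, the granule proteins PRG2 (major basic protein) and PRG3 (its homologue) rose: PRG2 read 15.14 and 15.12 with AZA, against 12.59 and 12.59 with vehicle (2.55 ± 0.071), and PRG3 read 8.91 and 8.79 with AZA, against 6.94 and 6.78 with vehicle (1.99 ± 0.12). PRG2 was thus already bright with vehicle, whereas CLC and EPX were not. HDC, which makes histamine, read 8.61 and 8.60 with AZA, against 5.95 and 6.01 with vehicle (2.63 ± 0.088). RNASE2, the eosinophil-derived neurotoxin, rose by 1.42 ± 0.15, CPA3, a mast cell carboxypeptidase, by 1.40 ± 0.18, and IL1RL1, the interleukin-33 receptor, by 0.92 ± 0.13, with another bright probe set at -0.10. RNASE2 has a close paralog, so its probes may read both. GATA2, a transcription factor of these lineages and of progenitors, read 10.63 and 10.70 with AZA, against 9.14 and 9.15 with vehicle (1.52 ± 0.072), although its weakest bright probe set differed by 0.10. FCER1A, the IgE receptor chain, lay below the array median in both arms and rose by 0.38 ± 0.078, a call lost with the covariate (0.39, adjusted p = 0.063). The tryptase genes TPSAB1 and TPSB2 were not called (0.25 and 0.16), nor were SIGLEC8 (0.067), a mature eosinophil receptor, and ALOX5 (-0.25), the leukotriene enzyme. IL5RA, the interleukin-5 receptor of eosinophils, differed by 0.073 on its chosen probe set and by 1.32 on its only bright one, so that its call depends on the probe set. With the covariate 9 of the 16 members rose. Without the filter on dim genes 18 members were tested, 10 of them rose and the median was 0.65.

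Azurophil granule genes, the proteases and peroxidase of promyelocytes, were higher after AZA from an already high level. Of 16 tested members 14 rose and 0 fell, with a median difference of 0.55. PRTN3, proteinase 3, read 13.45 and 13.43 with AZA, against 10.51 and 10.48 with vehicle (2.94 ± 0.14, a 7.7-fold rise). ELANE, neutrophil elastase, read 14.19 and 14.24 with AZA, against 11.38 and 11.50 with vehicle (2.78 ± 0.22). CTSG, cathepsin G, read 13.35 and 13.34 with AZA, against 11.64 and 11.69 with vehicle (1.68 ± 0.091). In each of these 3 proteases the 2 arrays of an arm lay far closer to each other than to the other arm. DEFA4, a defensin, rose by 1.46 ± 0.12, AZU1, azurocidin, by 1.36 ± 0.15, and MS4A3, a cell cycle adaptor of promyelocytes, by 0.77 ± 0.076. LYZ, lysozyme, rose by 0.48 ± 0.093 on its chosen probe set and had -0.44 on another. MPO, the myeloperoxidase, was close to the top of the scale in both arms, with 14.80 and 14.77 with AZA, against 14.45 and 14.36 with vehicle; its difference of 0.38 ± 0.14 passed the threshold (adjusted p = 0.049) but lost the call when any 1 of the 4 arrays was left out. SRGN, the granule proteoglycan serglycin, and CTSC, the protease that activates these enzymes, were not called on their chosen probe sets (0.12 and -0.10), although other bright ones differed by 1.26 and -1.23. With the covariate 10 of 16 members rose, with a median of 0.55.

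Genes of later neutrophil stages moved unevenly. Of 25 tested genes of specific and gelatinase granules and late neutrophils, 12 rose and 3 fell, with a median of 0.24. Among all tested genes 25.2% rose and 16% fell. S100A12, a calcium-binding alarmin, read 8.62 and 8.71 with AZA, against 5.98 and 6.03 with vehicle (2.66 ± 0.12), and S100A8, a subunit of calprotectin, read 14.13 and 14.09 with AZA, against 12.13 and 12.11 with vehicle (1.99 ± 0.19). S100A9, the partner of S100A8, rose by 1.33 ± 0.18, CEACAM6, a neutrophil adhesion protein, by 1.47 ± 0.14, MMP9, gelatinase B, by 1.36 ± 0.12, MGAM, a maltase of neutrophils, by 1.32 ± 0.10, and TCN1, the cobalamin carrier of specific granules, by 1.21 ± 0.15. The defining proteins of specific granules did not follow: LTF (lactoferrin) differed by 0.15, CAMP (cathelicidin) by 0.24, LCN2 (lipocalin 2) by -0.040 and OLFM4 by -0.12, none of them called. FPR2, a formyl peptide receptor, fell by 1.77 ± 0.15, with 8.42 and 8.88 with AZA, against 10.37 and 10.48 with vehicle, and S100P fell by 0.71 ± 0.093, whereas the related receptor FPR1 rose by 0.44 ± 0.14, a call lost under both rescalings and with the covariate. CSF3R, the G-CSF receptor, was not called (0.055).

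Of 38 tested monocyte and macrophage genes 14 were higher and 6 lower, against 25.2% and 16% of all tested genes. The share of falls was thus close to that of all tested genes, and the median was 0.16. ITGAM, the CD11b integrin of maturing myeloid cells, read 9.96 and 9.93 with AZA, against 7.64 and 7.81 with vehicle (2.22 ± 0.081). CD14, the lipopolysaccharide co-receptor, read 10.22 and 10.01 with AZA, against 8.38 and 8.61 with vehicle (1.62 ± 0.17). VCAN, a matrix proteoglycan, rose by 0.89 ± 0.12, CSF1R, the M-CSF receptor, by 0.65 ± 0.12, and ITGAX, the CD11c integrin, by 0.63 ± 0.11 (with the covariate 0.41, adjusted p = 0.11). In the other direction TLR4, the lipopolysaccharide receptor itself, read 7.64 and 7.88 with AZA, against 9.15 and 9.21 with vehicle and fell by 1.42 ± 0.12, CLEC7A fell as above, and C5AR1, the receptor of complement C5a, fell by 0.53 ± 0.14 (with the covariate -0.57, adjusted p = 0.13). Other defining markers stayed low: FCN1 read 5.96 and 6.12 with AZA, against 5.80 and 5.95 with vehicle, and CD163 read 5.41 and 5.41 with AZA, against 5.69 and 5.53 with vehicle, all below the array median of 6.73. Of the 4 defining monocyte markers, 2 lay above the array median, and the mean of the 4 was 7.41 and 7.33 with AZA and 6.79 and 6.84 with vehicle.

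Myeloid transcription factors mostly had small differences. Of 30 tested, 14 rose and 3 fell, against 25.2% and 16% of all tested genes, with a median of 0.21. SPI1 (PU.1), the master regulator of myeloid genes, rose by 0.33 ± 0.079, and CEBPA, which drives granulocyte development, by 0.44 ± 0.11; the CEBPA call was lost with the covariate (0.46, adjusted p = 0.13). CEBPE, which specific granule genes require, differed by 0.080 and GFI1 by -0.064, neither called. EGR1, an immediate early factor of monocytes, rose by 0.90 ± 0.21, and ZEB2, a zinc finger repressor, by 0.74 ± 0.086, with another bright probe set at -0.23. MYC, which HL60 cells carry in amplified form, read 13.24 and 13.01 with AZA, against 13.97 and 13.90 with vehicle and fell by 0.81 ± 0.20, a call lost with the covariate (-0.30, adjusted p = 0.53). Among progenitor markers KIT, the stem cell factor receptor, read 9.39 and 9.17 with AZA, against 7.99 and 8.07 with vehicle (1.25 ± 0.11), while FLT3, another progenitor receptor, fell by 0.70 ± 0.11 and CD109 by 1.18 ± 0.078.

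**Figure D3:**
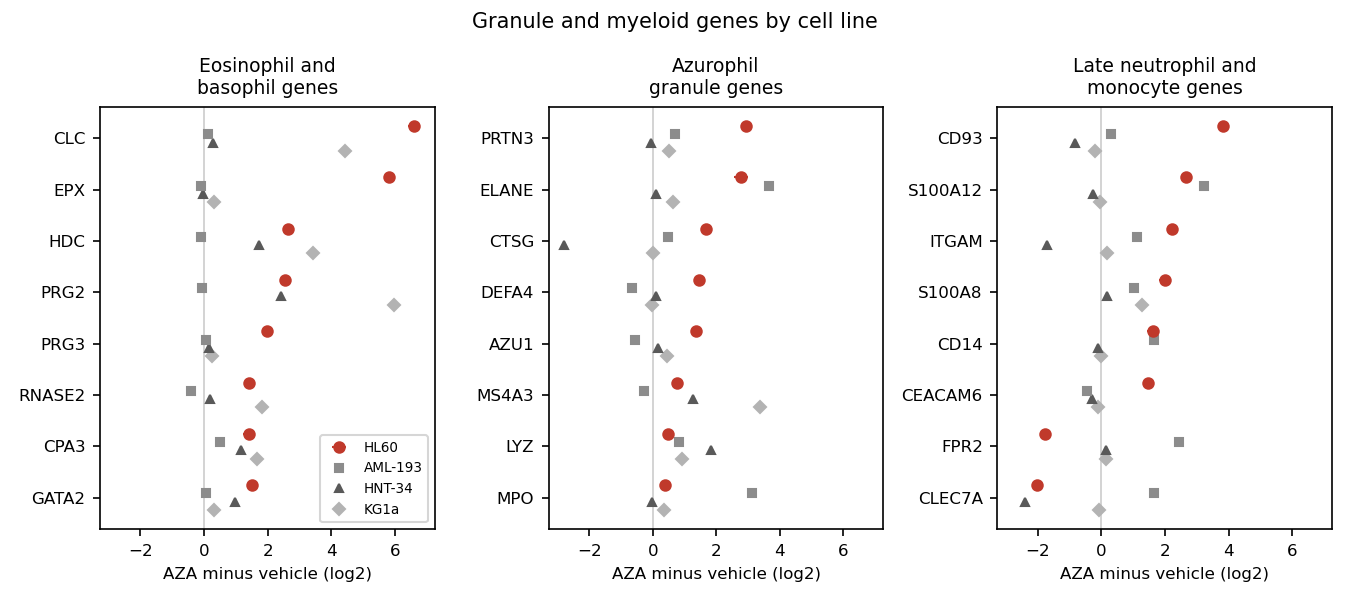
Each panel gives the AZA minus vehicle difference (x axis, log2) of 8 genes in HL60 (red circles, with SE bars) and, in grey, in AML-193 (squares), HNT-34 (triangles) and KG1a (diamonds). EPX and PRG3 stand to the right in HL60 alone, while CLC and PRG2 are also far right in KG1a, and PRG2 is to the right in HNT-34 too.

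S100 and annexin genes had a median difference of 0.53, with 14 of 24 higher and 3 lower. Beside S100A6, which read 10.65 and 10.91 with AZA, against 6.93 and 7.09 with vehicle, and the neutrophil members given above, ANXA2, a membrane-binding annexin, rose by 1.44 ± 0.12, S100A4 by 0.64 ± 0.077 and ANXA5 by 0.62 ± 0.10. S100A10, the partner of ANXA2, rose by 0.80 ± 0.16, and its call was lost with the covariate (0.75, adjusted p = 0.097). ANXA4 fell by 0.51 ± 0.10 (with the covariate -0.21, adjusted p = 0.26) and S100P fell as given above. Of the lysosome and autophagy genes 16 of 33 rose and 8 fell (median 0.22), against 25.2% and 16% of all tested genes. Lysosomal proteases led them: CTSD, cathepsin D, read 11.48 and 11.35 with AZA, against 9.88 and 9.99 with vehicle (1.48 ± 0.11), CTSH, cathepsin H, read 10.04 and 9.92 with AZA, against 8.53 and 8.60 with vehicle (1.41 ± 0.081), and CTSZ, cathepsin Z, rose by 1.50 ± 0.18, although its other bright probe set differed by 0.12.

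Germ cell and cancer-testis genes, many of them silenced by methylation outside the testis, were tested only in part. Of 15 tested germ cell and piRNA genes 9 rose and 0 fell, and of 13 cancer-testis genes 7 rose and 0 fell; the medians were 0.41 and 0.42. GCNA read 10.74 and 10.78 with AZA, against 6.83 and 6.54 with vehicle (4.07 ± 0.13). MAEL, a factor of transposon silencing in the germline, read 7.80 and 7.87 with AZA, against 4.87 and 5.05 with vehicle (2.88 ± 0.13), and PIWIL4, an Argonaute protein of the piRNA pathway, read 12.13 and 12.11 with AZA, against 9.70 and 9.78 with vehicle (2.38 ± 0.23). MAEL was below the array median with vehicle, whereas PIWIL4 was already bright. STAG3, a meiotic cohesin, rose by 1.24 ± 0.10. TDRD9, a germline helicase, rose by 0.87 ± 0.15, a call lost with the covariate (0.48, adjusted p = 0.14). Among the cancer-testis antigens MAGEB2 read 10.40 and 10.21 with AZA, against 6.81 and 7.15 with vehicle (3.33 ± 0.24). SSX1 rose by 1.23 ± 0.091, CTAG2 by 0.73 ± 0.11 and MAGEA6 by 1.35 ± 0.17, and these belong to families of near-identical copies, so their probes may read relatives. KDM5B, a histone demethylase that many tissues express, rose by 1.01 ± 0.082. PRAME, which HL60 cells already expressed, was not called (11.63 and 11.66 with AZA, against 11.88 and 11.91 with vehicle), and neither were MAGEA1 (0.14), MAGEC2 (-0.091), XAGE2 (0.034) and TEX19 (0.026). Of the 42 germ cell genes and 27 cancer-testis genes on the array, another 27 and 14 were too dim to be tested, so the counts above rest on members that lay above the array median on at least 2 of the 16 arrays. Without that filter 13 of the 42 germ cell genes rose and 0 fell, with a median of 0.083, and 12 of the 27 cancer-testis genes rose and 1 fell, with a median of 0.24.

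The ATF4 list was the one with the lowest median, -0.63. Of 29 tested ATF4 and integrated stress response genes, 20 fell and 3 rose, against 16% and 25.2% of all tested genes. ATF4 itself read 13.78 and 13.75 with AZA, against 14.16 and 14.15 with vehicle and fell by 0.39 ± 0.064. Its target ATF3, a stress-induced repressor, read 8.34 and 8.38 with AZA, against 9.97 and 10.05 with vehicle (-1.65 ± 0.11), and DDIT4, an inhibitor of mTORC1, read 11.03 and 10.77 with AZA, against 12.38 and 12.40 with vehicle (-1.48 ± 0.092). In these 3 genes the arms did not overlap, and the arrays of each arm lay close together. SESN2, which senses leucine, fell by 1.22 ± 0.094, TRIB3, a pseudokinase, by 1.01 ± 0.10, CEBPG, a partner of ATF4, by 0.76 ± 0.078, DDIT3 (CHOP), the death-promoting factor of the response, by 0.60 ± 0.073, and EIF4EBP1, which restrains translation, by 0.63 ± 0.076. TRIB3 and STC2 fell further on other bright probe sets, to -2.58 and -2.78. The exceptions were EIF2AK3 (PERK), the kinase that activates the pathway from the endoplasmic reticulum, which rose by 0.50 ± 0.072, and TRIB2, a pseudokinase, which rose by 0.62 ± 0.11 but had another bright probe set at -0.22 (with the covariate 0.48, adjusted p = 0.1). ERO1A, an oxidase of that compartment, differed by 0.53 ± 0.093 on its chosen probe set and by -0.47 on another. PPP1R15A, which ends the response, and GDF15 were not called (-0.066 and -0.094). With the covariate 18 members fell, 2 rose, and the median was -0.57.

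Serine synthesis genes fell at every step. PHGDH, the first enzyme of the path, read 11.83 and 11.84 with AZA, against 13.13 and 13.15 with vehicle (-1.30 ± 0.13), followed by PSAT1 and PSPH as given above. SHMT2, which moves carbon from serine to folate in mitochondria, fell by 0.40 ± 0.076, and MTHFD2, the next enzyme there, by 0.50 ± 0.10, with a second bright probe set at -2.27. SLC25A32, the mitochondrial folate carrier, fell by 0.59 ± 0.13, and TYMS, thymidylate synthase, by 0.37 ± 0.083; both calls were lost with the covariate (-0.30 and -0.15), and the bright probe sets of TYMS ran from -1.36 to 0.54. MTHFD1 (-0.11), GCSH (0.11), GLDC (-0.10), AMT (0.21), ALDH1L1 (-0.15) and FTCD (-0.0067), enzymes of the cytosolic folate cycle and of glycine cleavage, were not called. MTHFD2L rose by 0.23 ± 0.081, a call lost under both rescalings and with the covariate. In all, 7 of 14 members fell and 1 rose, and 5 fell with the covariate.

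Cysteine and glutathione genes fell as well, with 12 of 24 lower and 4 higher (median -0.20). CBS, which joins serine to homocysteine, read 9.14 and 9.06 with AZA, against 11.04 and 10.97 with vehicle (-1.91 ± 0.067). SLC7A11, the cystine importer, read 9.45 and 9.52 with AZA, against 11.14 and 11.05 with vehicle (-1.61 ± 0.10), and SLC3A2, its heavy chain, read 10.21 and 10.18 with AZA, against 11.10 and 11.17 with vehicle (-0.94 ± 0.078). Both subunits of that importer were thus lower with AZA, and their arrays did not overlap. AHCY, which recycles S-adenosylhomocysteine after methylation reactions, read 12.14 and 12.45 with AZA, against 12.96 and 13.01 with vehicle and fell by 0.69 ± 0.10. GCLM, a subunit of the first glutathione enzyme, fell by 0.74 ± 0.14, a call lost with the covariate (-0.61, adjusted p = 0.11), and its partner GCLC was not called (-0.12). GSS, which completes glutathione, rose by 0.44 ± 0.079 (with the covariate 0.32, adjusted p = 0.097), and SQOR, a sulfide oxidase, by 0.53 ± 0.11. GPX4, the lipid peroxidase, did not pass the test (0.037).

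The same direction held for other amino acid enzymes and for tRNA charging. Of 17 asparagine, arginine, proline and alanine genes 8 fell and 1 rose. ASNS, asparagine synthetase, read 11.48 and 11.69 with AZA, against 12.85 and 12.89 with vehicle (-1.29 ± 0.10), ASS1 read 11.14 and 11.29 with AZA, against 13.48 and 13.46 with vehicle (-2.25 ± 0.12), and PCK2, the mitochondrial PEP carboxykinase, fell by 1.03 ± 0.086. BCAT1, the cytosolic branched-chain aminotransferase, fell by 0.57 ± 0.086, and its bright probe sets ran from -2.73 to -0.21. Aminoacyl-tRNA synthetases fell in 15 of 33 and rose in 6 (median -0.19). SARS1 (serine) read 11.53 and 11.58 with AZA, against 12.76 and 12.82 with vehicle (-1.23 ± 0.093). TARS1 (threonine) fell by 1.09 ± 0.11 and had another bright probe set at 0.10. Falls were also found for AARS1 (alanine, -0.88 ± 0.066), WARS1 (tryptophan, -0.87 ± 0.074), IARS1 (isoleucine, -0.76 ± 0.063), CARS1 (cysteine, -0.65 ± 0.080) and GARS1 (glycine, -0.53 ± 0.081), whereas NARS1 (-0.12), HARS1 (-0.13) and EPRS1 (-0.092) were not called. The mitochondrial enzymes divided: MARS2 fell by 1.41 ± 0.11, while AARS2, SARS2, IARS2 and VARS2 rose by 0.46, 0.42, 0.30 and 0.27; the calls of AARS2 and VARS2 were lost with the covariate (0.23, adjusted p = 0.29, and 0.081, adjusted p = 0.66). Amino acid transporters showed 9 falls and 5 rises among 23, against 16% and 25.2% of all tested genes. SLC7A2, an arginine importer, fell by 0.91 ± 0.14, and SLC36A4, a proline and tryptophan transporter, rose by 0.88 ± 0.066. With the covariate 10 synthetases fell and 2 rose, and 5 of the asparagine, arginine and proline genes fell.

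**Figure D4:**
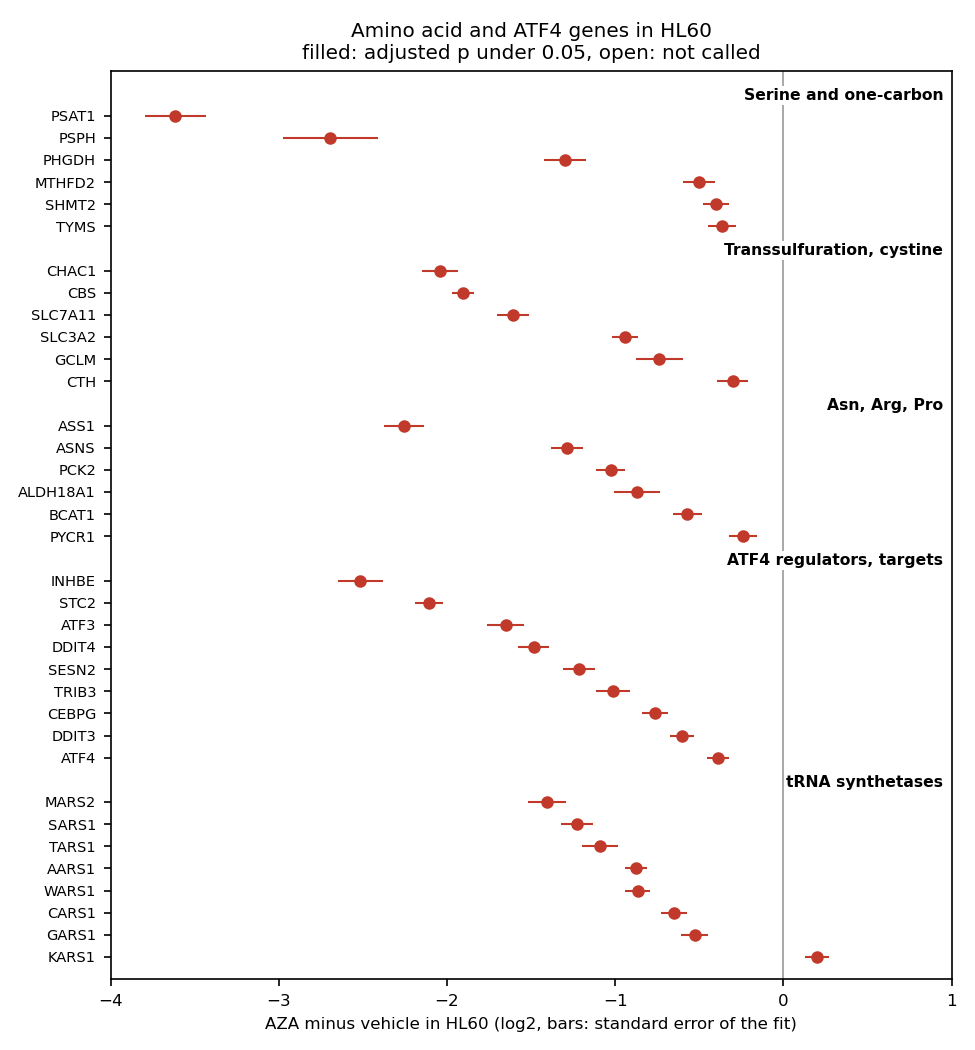
Points give the AZA minus vehicle difference in HL60 (x axis, log2) and bars the SE of the fit, with genes grouped by pathway. The genes shown are a selection of called genes, so every point is past the threshold. In the whole lists 15 of 33 synthetases fell and 6 rose, and 20 of 29 ATF4 genes fell and 3 rose. KARS1 (lysine, 0.20), whose call was lost in 9 alternatives, alone lies to the right of 0, and PSAT1 lies farthest left.

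Among 27 genes of sterol synthesis 14 passed the test as higher and 3 as lower, and the median was 0.22. The count of rises depended on the settings: 7 rose without the second vehicle array, 8 with arrays centred on their medians, 9 after quantile normalization, with the HL60 arrays alone or without the first vehicle array, and 6 with the covariate. HMGCS1, which commits carbon to the pathway, read 10.76 and 10.92 with AZA, against 9.64 and 9.55 with vehicle (1.24 ± 0.086), and LSS, which closes the sterol ring, read 11.54 and 11.57 with AZA, against 10.49 and 10.37 with vehicle (1.12 ± 0.11). MSMO1, a sterol demethylase with a single bright probe set, read 12.16 and 12.08 with AZA, against 11.29 and 11.29 with vehicle (0.83 ± 0.079). HMGCS1 and LSS each had another bright probe set on the other side of 0 (-0.20 and -0.38), and DHCR7, the last enzyme, had 0.92 and -0.30. SREBF1, a regulator of lipid synthesis, rose by 0.77 ± 0.11 and had another bright probe set at -0.069; its call was lost with the covariate (0.53, adjusted p = 0.054), and SREBF2, the main regulator of sterol genes, was not called (0.0005). NPC2, which exports cholesterol from lysosomes, fell by 0.85 ± 0.13 and lost its call with the covariate (-0.45). Among fatty acid genes ELOVL6, an elongase, rose by 1.22 ± 0.11, ACACA, the acetyl-CoA carboxylase, by 0.64 ± 0.10 and FASN, the fatty acid synthase, by 0.82 ± 0.19. Of the 22 fatty acid genes 8 rose and 6 fell, against 25.2% and 16% of all tested genes.

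Of 27 genes for protein folding in the endoplasmic reticulum and for its stress response, 13 rose and 6 fell, with a median of 0.23. The shares among all tested genes were 25.2% and 16%. CRELD2, a secreted stress protein, read 12.18 and 11.92 with AZA, against 10.40 and 10.36 with vehicle (1.67 ± 0.093). CALR, the calcium-binding chaperone calreticulin, read 13.48 and 13.47 with AZA, against 12.26 and 12.31 with vehicle (1.19 ± 0.073), and MANF, a protein released on stress, read 11.72 and 11.60 with AZA, against 10.52 and 10.61 with vehicle (1.10 ± 0.076). PDIA4, a disulfide isomerase, rose by 1.01 ± 0.079, HYOU1 by 0.79 ± 0.12, SDF2L1 by 0.77 ± 0.12 and HSPA5 (BiP), the main chaperone, by 0.48 ± 0.065. In the opposite direction ATF6, a transmembrane sensor, read 10.10 and 10.43 with AZA, against 11.63 and 11.63 with vehicle (-1.36 ± 0.14), XBP1, the factor spliced by IRE1, fell by 0.59 ± 0.077, EDEM1, of the degradation branch, by 1.22 ± 0.10, and HERPUD1 by 0.52 ± 0.082. With the covariate 12 members rose and 5 fell.

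Metallothioneins, small zinc- and copper-binding proteins, rose by similar amounts. MT2A read 12.87 and 12.98 with AZA, against 11.39 and 11.35 with vehicle (1.56 ± 0.081) and MT1X read 12.33 and 12.45 with AZA, against 10.86 and 10.91 with vehicle (1.51 ± 0.067). MT1H rose by 1.49 ± 0.072, MT1G by 1.45 ± 0.10, MT1E by 1.25 ± 0.15 and MT1F by 1.23 ± 0.086. These genes are close copies of one another, so their probe sets may read shared transcripts and do not count as separate observations. HMOX1, heme oxygenase, rose by 1.02 ± 0.15, and NQO1, a quinone reductase, by 0.69 ± 0.10. They were listed with the NRF2 targets, of which 14 of 25 rose and 2 fell, the falls being GCLM and SLC7A11.

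Interferon-stimulated genes rose in part: 23 of 64 were higher and 8 lower, beside 25.2% and 16% of all tested genes, and the median was 0.13. With arrays centred on their medians 22 were higher and 14 lower, with a median of 0.035, and after quantile normalization 23 were higher and 12 lower, with a median of 0.063. ISG15, the ubiquitin-like modifier, read 12.23 and 11.99 with AZA, against 10.68 and 10.63 with vehicle (1.45 ± 0.079), and IFITM1, a membrane protein that blocks viral entry, read 9.67 and 9.91 with AZA, against 8.33 and 8.43 with vehicle (1.41 ± 0.082). PARP12 rose by 1.38 ± 0.13, MX2, an antiviral GTPase, by 1.16 ± 0.15 and IRF9, a subunit of the factor that drives these genes, by 0.95 ± 0.070. XAF1, a pro-apoptotic target, rose by 1.96 ± 0.15 on its chosen probe set and by 0.22 on another bright one. IFIH1 (MDA5), the sensor of double-stranded RNA, fell by 0.44 ± 0.11, and PLSCR1, a scramblase, by 0.69 ± 0.10; the IFIH1 call was lost with the covariate (-0.22). With the covariate 15 members rose and 3 fell. Among MHC class I genes, 6 of 20 rose and 3 fell, near the 25.2% and 16% of all tested genes. TAP1, a peptide transporter, rose by 0.63 ± 0.082, and TAPBPL, a tapasin homologue, fell by 1.01 ± 0.16.

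Genes of the cell cycle divided by phase. Of 55 tested G2/M and mitosis genes 31 rose and 6 fell (median 0.31), whereas of 52 replication genes 9 rose and 18 fell (median -0.10). Among all tested genes 25.2% rose and 16% fell. The counts depended on the probe set. With the mean of all probe sets of a gene 22 mitosis genes rose and 11 fell (median 0.16), and 8 replication genes rose and 27 fell (median -0.20). In that setting 2702 of all 12656 tested genes rose and 2718 fell. CDC20, an activator of the anaphase-promoting complex, read 12.18 and 12.16 with AZA, against 11.21 and 11.22 with vehicle (0.95 ± 0.086), and SGO2, which protects centromeric cohesin, read 10.63 and 10.53 with AZA, against 9.49 and 9.66 with vehicle (1.01 ± 0.085). CKS1B, a cofactor of cyclin-dependent kinases, went the other way, with 10.57 and 11.10 with AZA, against 12.61 and 12.65 with vehicle (-1.79 ± 0.17). PRIM1, the primase subunit, read 10.62 and 10.99 with AZA, against 12.28 and 12.34 with vehicle (-1.51 ± 0.13), and the clamp loader genes RFC1, RFC3 and RFC5 fell by 0.96 ± 0.12, 0.74 ± 0.084 and 0.85 ± 0.12. In PRIM1, CKS1B and the RFC genes the first AZA array, which has the larger 3' minus 5' signal, was the lower of the pair. That signal differs between the HL60 arms, so its part and that of AZA cannot be told apart. With it as a covariate fewer of all tested genes were called (9.67% higher, 5.66% lower). Then 12 mitosis genes rose and 1 fell (median 0.25), and 1 replication gene rose and 7 fell (median -0.089). PRIM1 (-1.08), CKS1B (-1.13) and CDC20 (0.78) kept their calls.

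Of the methyltransferases that AZA targets only DNMT3B was called. DNMT1, the maintenance methyltransferase that AZA traps, read 11.13 and 11.42 with AZA, against 11.45 and 11.47 with vehicle and was not called (-0.18 ± 0.10, adjusted p = 0.15). DNMT3A, a de novo enzyme, was not called either (0.013 ± 0.071), and its bright probe sets ran from -0.32 to 0.43. DNMT3B, the other de novo enzyme, rose by 0.36 ± 0.12, a call lost in 7 of the alternatives, and UHRF1, which recruits DNMT1, rose by 0.41 ± 0.077 and lost its call with the covariate (0.37). TET2, which oxidizes methylcytosine, read 10.09 and 10.11 with AZA, against 9.32 and 9.38 with vehicle and rose by 0.75 ± 0.15, whereas TET1 (0.19) and TET3 (0.26) were not called. For uptake and metabolism of the drug, CTPS1, which makes CTP, fell by 0.92 ± 0.13 and CDA, which deaminates cytidine analogues, rose by 0.62 ± 0.21, a call lost under both rescalings. DCK, the deoxycytidine kinase, fell by 0.44 ± 0.10 and the nucleoside transporter SLC29A1 by 0.67 ± 0.22; both calls were lost with the covariate (-0.46 and -0.52). In all, 7 of 19 methylation genes rose and 1 fell, and 4 of 27 drug metabolism genes rose and 7 fell, against 25.2% and 16% of all tested genes. The drug metabolism counts depended on the probe set. With the mean of all probe sets of a gene 1 of 27 rose and 16 fell, and the median was -0.26, against 0.075 with the chosen ones. In that setting 8 methylation genes rose and 3 fell, beside 2702 rises and 2718 falls among all 12656 tested genes.

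Genes of p53 and apoptosis did not share a direction on their chosen probe sets. Of 32 tested p53 targets 7 rose and 7 fell, against 25.2% and 16% of all tested genes. HL60 cells are known to lack the p53 gene. FAS, a death receptor, read 7.13 and 7.58 with AZA, against 8.59 and 8.63 with vehicle (-1.26 ± 0.11), and PMAIP1 (NOXA) fell by 0.68 ± 0.15, while TNFRSF10B, another death receptor, rose by 0.95 ± 0.11. CASP4, an inflammatory caspase, differed by -1.12 ± 0.072 on its chosen probe set and by 0.45 on another. Of the BCL2 family and caspases 7 of 30 rose and 5 fell, close to the shares of all tested genes. With the mean of all probe sets of a gene 3 of the 30 rose and 12 fell (median -0.11), and 4 of 31 p53 targets rose and 8 fell. In that setting 2702 of all 12656 tested genes rose and 2718 fell.

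Surface and signalling genes included several large changes. CD52, a small surface glycoprotein, read 12.17 and 12.19 with AZA, against 10.02 and 10.05 with vehicle (2.15 ± 0.27); with the covariate its difference was 1.05. CD9, a tetraspanin, rose by 1.31 ± 0.10, CD48, a ligand of NK cell receptors, fell by 1.18 ± 0.10, and CD69, an activation marker, fell by 1.21 ± 0.092. PECAM1 (CD31), an adhesion molecule, rose by 1.55 ± 0.089 and ITGA5, the fibronectin receptor chain, by 0.87 ± 0.12. Among cytokines IL32 rose by 1.76 ± 0.20 and CCL5, a T cell chemokine, by 1.43 ± 0.092, with 11.77 and 11.75 with AZA, against 10.24 and 10.42 with vehicle. IL18 fell by 1.82 ± 0.18, CCL2, a monocyte chemokine, by 1.49 ± 0.15, with 11.75 and 11.87 with AZA, against 13.32 and 13.28 with vehicle, and VEGFA by 1.26 ± 0.10. CREB5, a factor of the AP-1 group, rose by 1.97 ± 0.13, whereas JUN fell by 1.02 ± 0.12 and MAFF by 1.32 ± 0.15. All 4 bright probe sets of JUN and of VEGFA were lower after AZA. Over the AML surface list 20 of 54 rose and 13 fell, against 25.2% and 16% of all tested genes. Over chemokines and cytokines 10 of 36 rose and 6 fell, close to those shares.

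**Figure D5:**
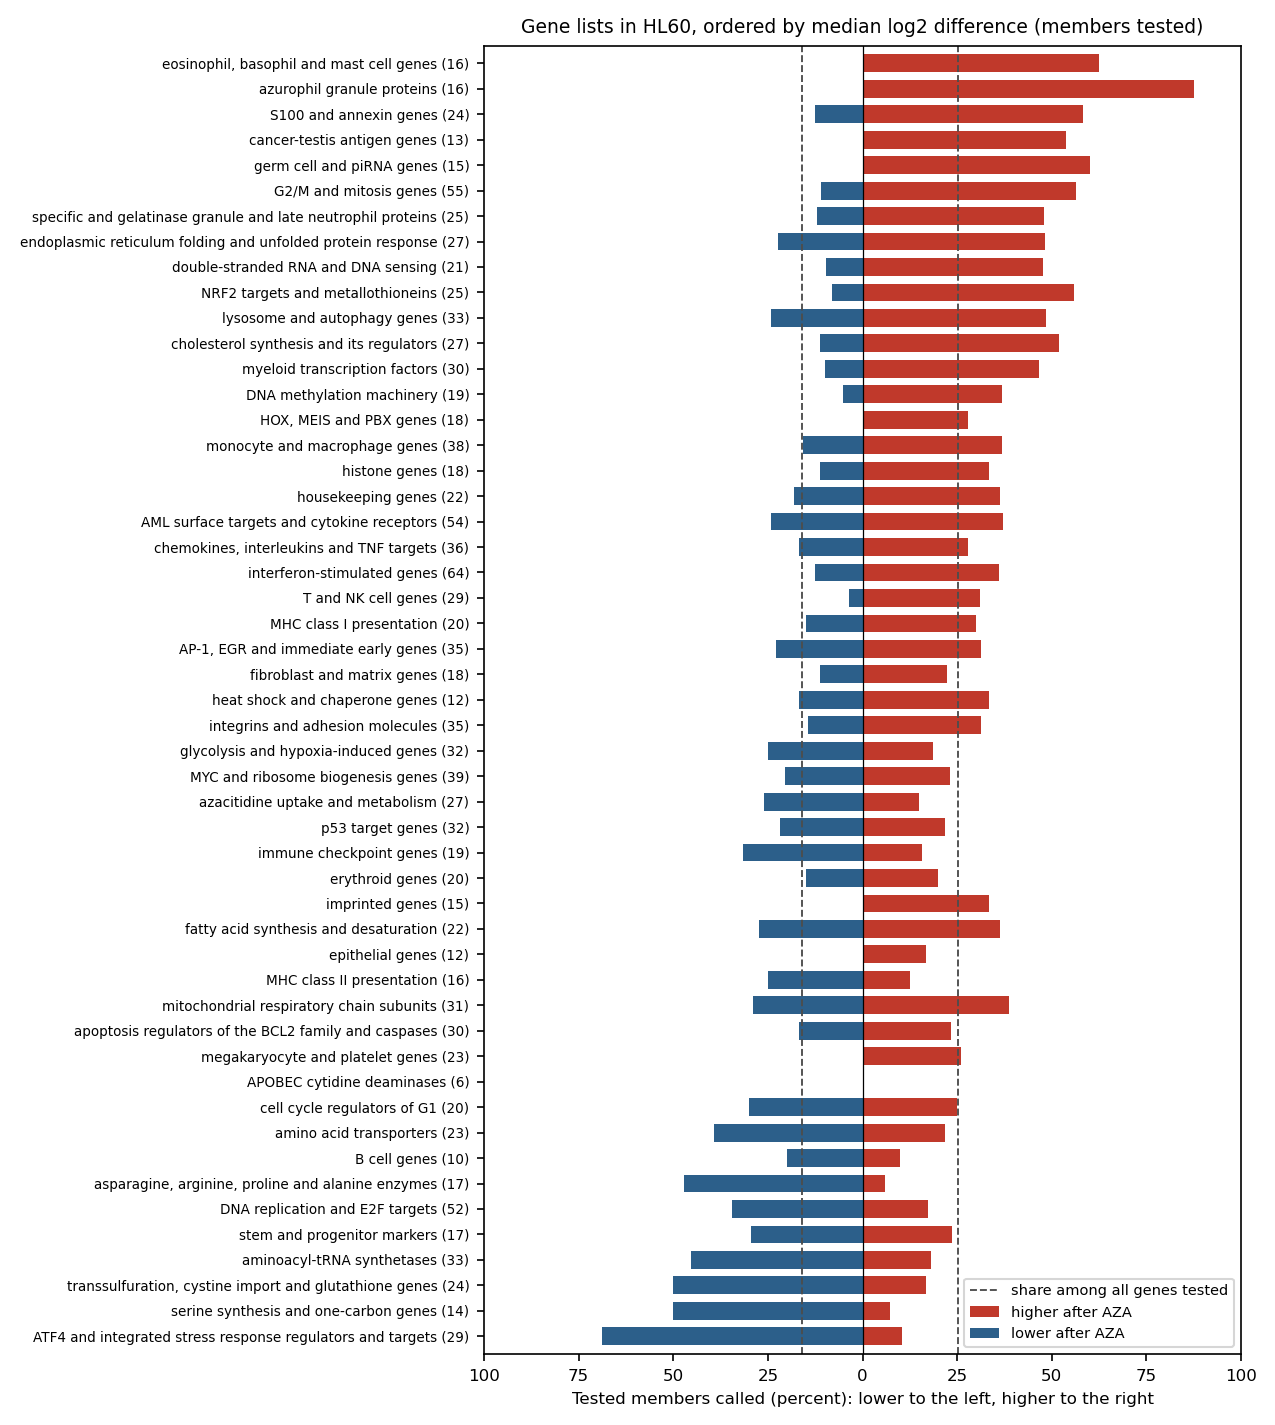
Bars give the percent of tested members called higher (red, to the right) and lower (blue, to the left) after AZA in HL60 for 51 gene lists, ordered by median difference, with the number of tested members in brackets; dashed lines mark 25.2% and 16%, the shares among all tested genes. Eosinophil and azurophil granule genes lie at the top and ATF4 genes at the bottom.

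The counts of the other lists were smaller with the covariate too, since fewer genes were called in all: 1358 of all tested genes (9.67%) were then higher and 794 (5.66%) lower. With it the 25 late neutrophil genes had 9 rises and 2 falls, the 38 monocyte genes 11 rises and 2 falls and the 30 myeloid transcription factors 6 rises and 0 falls. Fewer of the 24 S100 and annexin genes passed, with 11 rises and 1 fall, the 33 lysosome genes 11 rises and 1 fall and the 25 NRF2 targets and metallothioneins 9 rises and 1 fall. In the 15 germ cell genes there were 5 rises and 0 falls, the 13 cancer-testis genes 5 rises and 1 fall, the 19 methylation genes 2 rises and 0 falls and the 27 drug metabolism genes 2 rises and 1 fall. The 24 cysteine and glutathione genes had then 2 rises and 6 falls, the 23 amino acid transporters 5 rises and 4 falls and the 22 fatty acid genes 4 rises and 0 falls. The 20 MHC class I genes had 6 rises and 2 falls, the 32 p53 targets 2 rises and 4 falls, the 54 AML surface genes 11 rises and 5 falls and the 36 chemokines and cytokines 6 rises and 5 falls.

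Housekeeping genes and ribosomal protein genes serve as a check of the scale. Of 22 housekeeping genes 8 rose and 4 fell (median 0.15), against 25.2% and 16% of all tested genes. ACTB rose by 0.35 ± 0.063 and TBP fell by 0.47 ± 0.067. The housekeeping counts depended on the settings. With the mean of all probe sets of a gene 3 rose and 8 fell (median -0.11). Arrays centred on their medians gave 4 rises and 5 falls (median 0.054), and the covariate gave 3 rises and 1 fall (median 0.15). Of 56 cytosolic ribosomal protein genes 2 rose and 6 fell, with a median of -0.029. Differences of this size are thus found among genes that are often used as references.

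Promoter CpG content was compared across the called genes with the RefSeq sequences, which were matched for 11212 of the 14038 tested genes. An observed over expected CpG ratio of at least 0.6 in the 250 bases before the start was held by 58.5% of the 236 genes that rose at least 2-fold, by 78.9% of the 142 that fell at least 2-fold and by 73.8% of all. Genes that were dim with vehicle had fewer such promoters in general: 45.9% of the 74 dim genes that rose at least 2-fold, against 52.7% of all 1099 dim genes. Among genes that were not dim with vehicle, 64.2% of the 162 that rose at least 2-fold held one, against 76.1% of all 10113. The ATF4 response element was searched for as TGATGNAA on both strands. It was held by 6 of 54 promoters (11.1%) of the genes that fell in the amino acid and ATF4 lists, against 181 of 11212 (1.61%) of all tested genes. Among all genes called lower 44 of 1863 (2.36%) held it, and among those called higher 33 of 2893 (1.14%). In the whole ATF4 list 2 of 25 held it. The lists were written to hold ATF4 targets and list members that did not fall were not compared, so the larger share says nothing about AZA. None of the printed sequences holds it, and a match or its absence describes these letters in this window only.

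The HL60 response was set against the mean response of AML-193, HNT-34 and KG1a by a contrast in the same fit. The HL60 difference departed from it in 6107 genes (43.5%), above it in 3548 (25.3%) and below it in 2559 (18.2%); with the covariate the count was 688, and AML-193 carries the opposite 3' minus 5' gap. TKTL1 departed most, by 5.87 ± 0.18 (adjusted p = 4.35e-10), having risen by 6.11 in HL60 and differed by 0.31, 0.26 and 0.15 in AML-193, HNT-34 and KG1a. EPX departed by 5.78 ± 0.17, with differences of -0.10, -0.039 and 0.30 in the other lines. CLC departed by 4.99 ± 0.21, although KG1a also showed a difference of 4.42. PRG2 lay slightly below the mean of the others (-0.23 ± 0.081, adjusted p = 0.035), and it differed by 5.96 in KG1a and 2.42 in HNT-34. Of the 16 eosinophil, basophil and mast cell genes 12 were called higher in KG1a, 10 in HL60, 7 in HNT-34 and 3 in AML-193. The medians of that list were 1.63, 1.16, 0.25 and 0.0090 in the same order. The germline gene GCNA was higher in all 4 lines after AZA, by 4.07 in HL60 and by 2.56, 3.98 and 1.33 in AML-193, HNT-34 and KG1a, and ZNF595 by 6.42 in HL60, 6.47 in HNT-34 and 3.44 in KG1a, but by 0.20 in AML-193. PRTN3 (2.56 ± 0.16), CTSG (2.45 ± 0.11), CD93 (4.08 ± 0.091) and PIWIL4 (2.31 ± 0.27) stood above the other lines.

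On the lower side PSAT1 departed by -3.55 ± 0.21, with differences of 0.74, 0.13 and -1.07 in AML-193, HNT-34 and KG1a, and ASS1 and STC2 departed by -2.46 ± 0.14 and -2.20 ± 0.10. FBXL13, an F-box gene, fell by 0.99 ± 0.077 in HL60 and departed by -2.73 ± 0.089, beside a mean difference of 1.74 in the other lines. PPBP, a platelet chemokine, rose by 1.34 ± 0.19 in HL60 and departed by -2.52 ± 0.22, beside a mean difference of 3.86 in the other lines. FPR2, CCL2 and S100P departed by -2.69 ± 0.17, -2.65 ± 0.17 and -2.54 ± 0.11. In the ATF4 list 7 of 29 genes departed above and 14 below, against 25.3% and 18.2% of all tested genes. Among synthetases 12 of 33 departed above and 9 below, and among cysteine and glutathione genes 5 of 24 above and 9 below. The ATF4 list median was -0.63 in HL60, -0.28 in AML-193, -0.68 in HNT-34 and 0.015 in KG1a. For CHAC1 and SLC7A11 no departure was called. CHAC1 fell by 2.04 in HL60 and differed by -1.68, -2.91 and -0.87 in the other lines, with a departure of -0.22 ± 0.12 (adjusted p = 0.17). SLC7A11 departed by 0.22 ± 0.11 (adjusted p = 0.12). ASNS fell less in HL60 than in the mean of the others, with a departure of 0.44 ± 0.11. Of the 305 genes that rose at least 2-fold in HL60, 23 were also called higher in all 3 other lines and 125 in none of them; of the 185 that fell at least 2-fold, 8 were called lower in all 3 and 119 in none. The share of all tested genes called was 41% in AML-193 (20.7% higher, 20.3% lower), 30.2% in HNT-34 (15.4% and 14.8%) and 9.93% in KG1a (6.56% and 3.37%). Of the 3542 genes higher in HL60, 563 were higher and 1145 lower in AML-193, and of the 2252 lower in HL60, 348 were lower and 880 higher there; the 3' minus 5' gap of AML-193 ran the opposite way, and its part in these counts was not tested.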

How the data were processed

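RNA of 16 samples was hybridised to expression arrays, 2 arrays for each of 4 cell lines with AZA or vehicle. The deposited table holds log2 signals per probe set; the submitters' processing notes name RMA and affy as what the authors used, and versions are not given in the sources used here. Gene symbols came from the platform's annotation. Probe sets that exceeded the median of their array on fewer than 2 of 16 arrays were left out, and each gene was read from the probe set of highest average signal. One linear model over 8 groups was fitted with limma 3.58.1 in R 4.3.3, with moderated variances and Benjamini-Hochberg adjustment over all tested genes, and the script was tested on simulated data. Arrays give no counts, and 2 arrays per group limit the precision. The calls of single genes and of lists were recomputed with other probe set choices, filters, scalings and spread estimates, with the control 3' minus 5' signal as a covariate and without single arrays. Named genes were the 15 largest rises and falls whose arms do not overlap, the 8 genes farthest above and below the other lines, up to 6 of each of 51 lists, every member of small lists, and genes of DNA methylation; other list members were picked after their values were seen. The gene lists were written from general knowledge. Members and lists were chosen with earlier results of these data known. One gene that the rule names is not reported here. Promoters are from RefSeq (GRCh38.p14), matched by symbol.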

Additional observations from a re-analysis of the deposited data

Results flagged for a closer look

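In 15 genes the AZA response of HL60 departed most from the mean response of AML-193, HNT-34 and KG1a, by a contrast of the limma fit that tests the difference itself. Above the other lines stood TKTL1 by 5.87 ± 0.18, EPX by 5.78 ± 0.17, CLC by 4.99 ± 0.21, CD93 by 4.08 ± 0.091, GDA by 3.40 ± 0.17, GSN by 3.37 ± 0.11 and SLPI by 3.20 ± 0.13 (log2, ± SE). Below them stood PSAT1 with -3.55 ± 0.21, FCF1 with -3.27 ± 0.40, FBXL13 with -2.73 ± 0.089, FPR2 with -2.69 ± 0.17, CCL2 with -2.65 ± 0.17, PSPH with -2.55 ± 0.32, S100P with -2.54 ± 0.11 and PPBP with -2.52 ± 0.22. For FCF1 the departure was 0.21 with its other bright probe set, which is the brighter one in HL60, and for PSPH it was -0.21 and not called with the probe set brightest in HL60 and was not called with the 3' minus 5' covariate either. PPBP rose in HL60 by 1.34 ± 0.19 but by less than in the other lines. CCL2 and FPR2 fell in HL60 by 1.49 ± 0.15 and 1.77 ± 0.15, while the mean difference of the other lines was 1.16 and 0.91. Groups of 2 arrays are too small for a test of single arrays against their group.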

How the results depend on the processing

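The count of called genes in HL60 was 2152 with the control 3' minus 5' signal as a covariate, against 5794 without it, and the count of genes that departed from the other lines was 688, against 6107; in the other alternatives both counts moved by less than 1.5 times. Leaving out each HL60 array in turn gave 4298 to 5638 called genes, 280 to 345 rises and 139 to 297 falls of at least 2-fold, and 4773 to 6000 departures; the lone array left in an arm is then assumed to vary like the other groups. The 139 falls are those without the first AZA array, which carries the larger 3' minus 5' signal, and the 297 those without the second. Without the AML-193 arrays, an alternative chosen after seeing the data, 5956 genes were called and 5168 departed. With the 4 HL60 arrays alone 4579 were called. Of 216 called genes named in the text, 27 lost the call with the covariate, 7 with median-centred arrays, 6 after quantile normalization and 5 with the HL60 arrays alone. With the mean of all probe sets ERO1A turned to -0.013, and with the probe set brightest in HL60 FCF1 turned to 0.015 in HL60 and to 0.21 against the other lines. Among the medians of 51 gene lists, 44 moved by more than the spread between arrays with centred arrays, 33 with the mean of all probe sets, 32 after quantile normalization and 26 with the covariate. The calls of LYZ and TNFRSF10B were lost with the mean of all probe sets, and that of XAF1 with the HL60 probe set. No paired analysis was possible because the labels give no replicate numbers. Dim probe sets near the array median limit what can be seen of silent genes.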

Other observations

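Of 23 megakaryocyte and platelet genes 6 rose and 0 fell in HL60, beside 25.2% and 16% of all tested genes, with a median of 0.017, beside 0.050 over all. ITGA2B, the platelet integrin chain, read 9.08 and 8.81 with AZA, against 6.99 and 7.30 with vehicle (1.80 ± 0.13), and PPBP read 6.61 and 6.36 with AZA, against 5.27 and 5.02 with vehicle (1.34 ± 0.19). LAT, an adaptor of T cells and platelets, rose by 1.32 ± 0.081. Of ITGA2B, PPBP and LAT, PPBP lay below the array median in both arms. The defining megakaryocyte markers had a mean of 7.90 and 7.75 with AZA and of 7.12 and 7.32 with vehicle, and of the 3 only ITGA2B was called: PF4 differed by 0.034 and GP9 by -0.027. Erythroid genes had 4 rises and 3 falls among 20, near the 25.2% and 16% of all tested genes. XK, a red cell membrane protein, read 7.99 and 7.96 with AZA, against 4.72 and 4.80 with vehicle (3.21 ± 0.14). CA2, a carbonic anhydrase, read 9.81 and 10.11 with AZA, against 11.52 and 11.54 with vehicle and fell by 1.57 ± 0.13. BLVRB, a biliverdin reductase, fell by 0.98 ± 0.083.

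Of 15 imprinted genes 5 rose and 0 fell, beside 25.2% and 16% of all tested genes. MEST read 7.36 and 7.66 with AZA, against 6.40 and 6.55 with vehicle (1.03 ± 0.11), and PEG3 read 8.15 and 8.26 with AZA, against 7.46 and 7.37 with vehicle (0.79 ± 0.086); both are expressed from the paternal copy in normal tissue. Of 18 HOX, MEIS and PBX genes 5 rose, close to the 25.2% of all tested genes, and 0 fell, with PBX3 at 0.79 ± 0.10. Among glycolysis and hypoxia genes 6 of 32 rose and 8 fell, beside 25.2% and 16% of all tested genes. HK1, a hexokinase, rose by 1.18 ± 0.13, and VEGFA fell as given above. Vimentin, a filament of mesenchymal and blood cells (VIM), rose by 1.23 ± 0.14 and TIMP1, a protease inhibitor, by 0.73 ± 0.12. KRT18, a keratin, rose by 1.36 ± 0.091, while the epithelial markers EPCAM and CDH1 lay below the array median on all 4 arrays.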
